A study of Mus musculus with 6 samples.

Results

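The genes described here encode laminin chains: Lama1, Lama3, Lama4 and Lama5 for alpha chains, Lamb1, Lamb2 and Lamb3 for beta chains, and Lamc1 for a gamma chain. They were chosen by symbol and make up 8 of the 23224 genes in the deposited table. Of these 8 genes, 6 passed the filter on low counts and were tested among 14416 genes, and Lama1 and Lama4 did not pass. Lama2, which is no member, is given beside them where the class of alpha chains needs it.

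Laminins are secreted glycoproteins of the basement membrane, each built from an alpha, a beta and a gamma chain that join in the cell before export. A trimer is named by the numbers of its chains, so that LM-511 holds alpha 5, beta 1 and gamma 1, and LM-321 holds alpha 3, beta 2 and gamma 1. The alpha chain carries most of the binding sites for integrins and dystroglycan, which tie the cell to the membrane beneath it. In the lung, trimers with the alpha 5 and alpha 3 chains lie under the alveolar epithelium, between the surfactant-secreting type 2 (AT2) cells or the flat type 1 (AT1) cells and the capillaries.

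The data are 6 polyA RNA-seq libraries of mouse lung alveolar organoid cells with the genotype Sftpc-eGFP, 1 from each of the cell lines SN3593 and SN3595 in each of 3 culture conditions held for 7 days. The group 3D FNHCS was kept with the medium FNHCS in 90% matrigel drops, and matrigel is a basement membrane extract that itself contains laminin protein. The group 2D FNHCS had that medium without the drops, as a flat culture. The group 2D FBS was also flat, with Ad-DMEM F/12 plus 10% FBS (fetal bovine serum). The titles call these groups type II, AT2 and AT1, and type I. The cells of every group carry the same reporter genotype, and all were freed with TrypLE before RNA was taken. It is not stated that SN3593 and SN3595 derive from separate animals, so the p-values reflect variation among these 6 libraries, some of it possibly technical. A sort on eGFP is neither stated nor excluded for these libraries. Laminin protein was not measured.

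Each library held between 33634368 and 43334665 expected counts. Levels are CPM, counts scaled to a common library total with TMM factors, and a gene is called where the adjusted p of edgeR's quasi-likelihood test was below 0.05 over all 14416 genes. The 12 AT2 markers summed to 51900 and 70580 CPM in 3D FNHCS, 55230 and 46460 CPM under 2D FNHCS, and 905 and 1321 CPM under 2D FBS. The 13 AT1 markers summed to 3506 and 3070 CPM, 6619 and 15600 CPM, and 28200 and 28610 CPM in the same order. The 3D and 2D FBS labels thus matched these lists, and the 2D FNHCS libraries held RNA of both. Most of the AT2 sum in the FNHCS groups was Sftpc, with means of 37260 CPM in 3D and 46210 CPM in 2D. In 2D FNHCS against 3D FNHCS, 8 of the 12 AT2 markers were called lower and 0 higher, where 9.77% of all genes were called lower. Here and below, paired values are given for line SN3593 and then line SN3595. These are bulk libraries, in which fewer cells of a type and less RNA per cell cannot be told apart. The part of AT1 and AT2 markers in the laminin results was not tested.

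Promoters were matched for 4 of the 8 genes. Those of Lamb3 and Lamb2, both higher in 2D FBS than in 3D FNHCS, are shown beside that of Lama5, which was called in no comparison, because they differ in base composition. Each runs from 250 bases before the annotated start to 50 bases after it, from RefSeq on build GRCm38.p6, 5′ to 3′ on the strand of the gene. Lamb3 has 2 annotated starts whose windows overlap, at chr1:193301744-193302043 and chr1:193301993-193302292 on the plus strand. Lamb2 lies at chr9:108479612-108479911 on the plus strand, and Lama5 at chr2:180225810-180226109 on the minus strand. Capitals mark matches to a GC box (GGGCGG) or a TEAD motif (GGAATG) on either strand.
Lamb3 start 1: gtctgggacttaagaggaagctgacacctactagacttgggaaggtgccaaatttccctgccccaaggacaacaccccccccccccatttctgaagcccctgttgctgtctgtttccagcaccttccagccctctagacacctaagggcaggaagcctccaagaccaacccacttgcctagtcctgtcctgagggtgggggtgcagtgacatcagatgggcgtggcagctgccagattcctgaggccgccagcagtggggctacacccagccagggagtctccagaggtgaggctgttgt
Lamb3 start 2: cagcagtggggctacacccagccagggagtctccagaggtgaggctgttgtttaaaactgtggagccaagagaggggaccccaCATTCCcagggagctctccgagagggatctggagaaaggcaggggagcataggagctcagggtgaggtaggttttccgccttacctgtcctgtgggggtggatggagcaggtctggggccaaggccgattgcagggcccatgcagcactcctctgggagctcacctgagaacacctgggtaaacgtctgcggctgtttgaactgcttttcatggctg
Lamb2: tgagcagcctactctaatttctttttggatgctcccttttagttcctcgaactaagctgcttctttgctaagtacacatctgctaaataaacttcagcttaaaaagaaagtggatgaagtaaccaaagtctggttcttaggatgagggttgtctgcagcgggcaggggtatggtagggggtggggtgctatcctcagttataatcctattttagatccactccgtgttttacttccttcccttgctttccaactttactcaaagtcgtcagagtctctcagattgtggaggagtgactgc
Lama5: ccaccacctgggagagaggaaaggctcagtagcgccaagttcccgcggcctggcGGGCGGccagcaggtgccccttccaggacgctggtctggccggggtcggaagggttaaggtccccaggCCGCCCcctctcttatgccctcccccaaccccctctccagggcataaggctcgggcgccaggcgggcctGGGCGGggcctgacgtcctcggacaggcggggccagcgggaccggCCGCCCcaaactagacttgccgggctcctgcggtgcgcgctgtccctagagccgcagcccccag

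The searched motifs were the GC box, the TEAD motif, the AP-1 motif (TGACTCA or its reverse complement TGAGTCA) and the TATA box (TATAAA), on both strands, with none of them overlapping in these windows. Among 32544 promoters of the same length, 35.9% held the GC box, 14.6% the TEAD motif, 5.19% the AP-1 motif and 13.6% the TATA box. The Lama5 promoter was 72.7% G and C and held 4 GC boxes, and the Lamb1 promoter was 63.7% G and C and held 2. The Lamb2 promoter was 44.0% G and C and held none of the 4 motifs. Both Lamb3 windows were 59.3% G and C, with no match in the first and 1 TEAD match in the second, at position -167 from the start. The median over all promoters was 53.0% G and C. These matches are a description of the letters, and no binding was measured.

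The comparison of both ends of the series, 2D FBS against 3D FNHCS, covers the change of geometry, matrigel and medium together. Of the 6 tested chains, 3 rose and none fell. Lamb3, whose beta 3 chain joins alpha 3 in epithelial laminin, rose 3.06-fold, Lamb2, for the beta 2 chain that can replace beta 1, rose 3.06-fold, and Lama3, for the alpha 3 chain of epithelial laminins, rose 6.36-fold. Lama5, Lamb1 and Lamc1 did not pass the test. Of all genes tested, 40.5% were called in this comparison, 19.9% higher and 20.5% lower. The median log2 fold change was 1.07 over the 6 chains and -0.03 over all genes tested.

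Lama3 stood at 21.8 and 6.18 CPM in 3D FNHCS, at 62.6 and 79.6 CPM under 2D FNHCS, and at 48.6 and 129 CPM under 2D FBS. Every flat library exceeded both 3D libraries, and the flat groups overlapped each other. The line SN3595 held both the lowest and the highest of the 6 values. From 14.0 ± 11.1 CPM (SD, n = 2) in 3D FNHCS, Lama3 rose to 88.9 ± 56.9 CPM in 2D FBS (log2 fold change 2.67 ± 0.69 SE, adjusted p = 0.0252, edgeR). Leaving out SN3595 ended that call, whether its 3D library (adjusted p = 0.0721) or its 2D FBS library (adjusted p = 0.115) was dropped. In 2D FNHCS the mean was 71.1 ± 12.0 CPM, and the difference from 3D FNHCS did not pass the test (2.35 ± 0.69, adjusted p = 0.0615, edgeR).

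Lama5 encodes the alpha 5 chain, the main alpha chain of the mature alveolar basement membrane. Its levels were 142 and 161 CPM in 3D FNHCS, 66.5 and 117 CPM under 2D FNHCS, and 119 and 117 CPM under 2D FBS. Both 3D libraries exceeded all 4 flat libraries. The group means were 152 ± 13.5, 91.6 ± 35.5 and 118 ± 1.14 CPM. None of the differences passed the edgeR test: the log2 fold change was -0.73 ± 0.28 in 2D FNHCS against 3D FNHCS (adjusted p = 0.119), 0.37 ± 0.28 in 2D FBS against 2D FNHCS (adjusted p = 0.418) and -0.36 ± 0.28 in 2D FBS against 3D FNHCS (adjusted p = 0.339). Without the 2D FNHCS library of SN3595, the first of these reached an adjusted p of 0.0349 at -1.19.

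The other alpha chains were close to absent. Lama1, whose alpha 1 chain belongs to embryonic laminin and to the laminin of matrigel, had 0 counts in both 3D libraries, 43 and 9 counts under 2D FNHCS, and 9 and 0 counts under 2D FBS. A count of 0 was set against a floor of 3 counts per library, which is 0.0704 to 0.0864 CPM. The mean of Lama1 under 2D FNHCS was 7.72-fold the floor of 3D FNHCS, with the counting error of Lama1 itself left out. Most Lama1 counts came from 1 library, 2D FNHCS of SN3593. Line by line, Lama1 was 12.9-fold the floor in SN3593 and 2.48-fold in SN3595. Lama4, for the alpha 4 chain of endothelial and mesenchymal laminins, had 0 to 4 counts in every library. The non-member Lama2, for the alpha 2 chain of muscle, had 4 to 30 counts. It passed the filter and was called higher in 2D FNHCS against 3D FNHCS (log2 fold change 2.27 ± 0.60, adjusted p = 0.0484, edgeR). Of all genes, 8.63% were called higher there. Lama2 was not called in either comparison with 2D FBS.

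**Figure D1:**
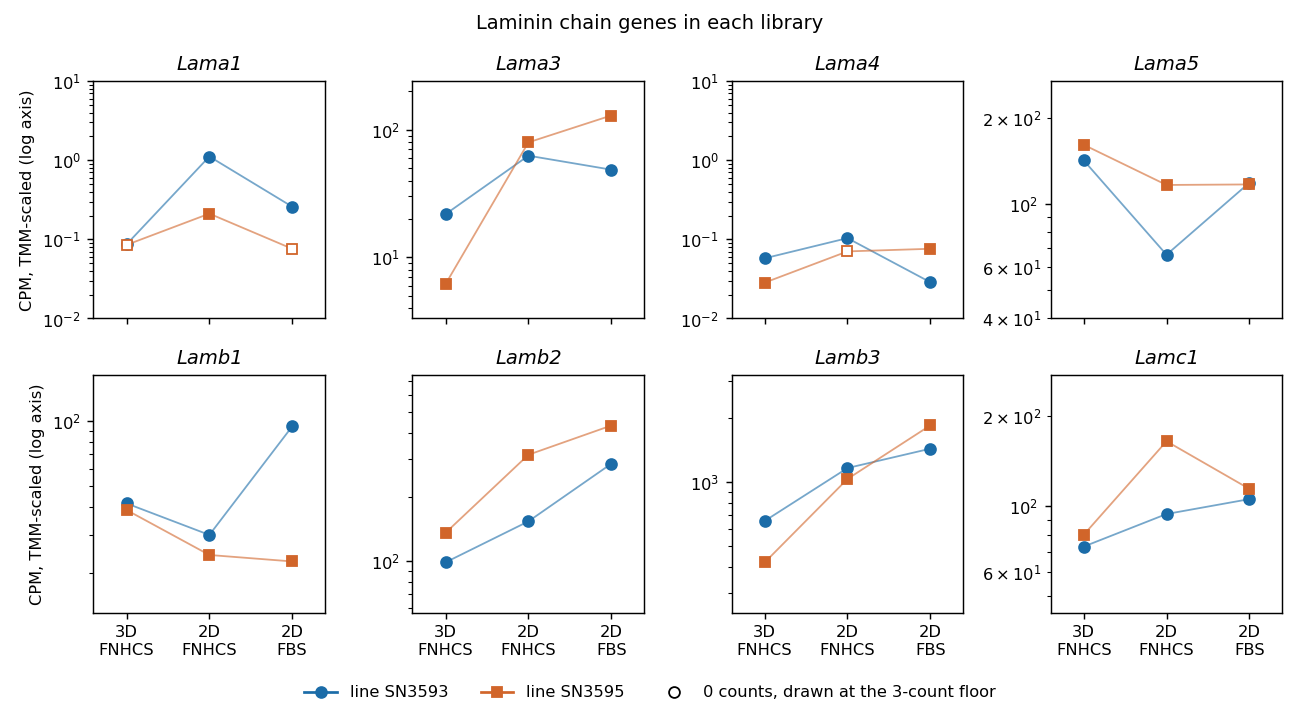
Level of each of the 8 laminin chain genes in the 6 libraries (CPM, TMM-scaled, log axis), by condition, with 1 point per library and a line joining the libraries of a cell line. Lamb3 and Lamb2 are lowest in 3D FNHCS and highest in 2D FBS in both lines, Lamb1 separates the lines in 2D FBS (94.2 against 22.6 CPM), and open symbols mark libraries with 0 counts, drawn at the floor of 3 counts.

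Lamb3 encodes the beta 3 chain, whose loss causes junctional skin blistering in humans and mice. It stood at 656 and 419 CPM in 3D FNHCS, at 1165 and 1035 CPM under 2D FNHCS, and at 1437 and 1850 CPM under 2D FBS. No 2 groups overlapped, and both lines kept the same order, lowest in 3D FNHCS and highest in 2D FBS. The means were 537 ± 168, 1100 ± 91.9 and 1644 ± 292 CPM. Lamb3 rose in 2D FBS against 3D FNHCS (log2 fold change 1.61 ± 0.30, adjusted p = 0.00879, edgeR), and this call held without any 1 of the 6 libraries (adjusted p from 0.0112 to 0.0487). The steps between neighbours did not pass the test, with 1.03 ± 0.30 from 3D FNHCS to 2D FNHCS (adjusted p = 0.0603) and 0.58 ± 0.30 from there to 2D FBS (adjusted p = 0.251).

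Lamb2 encodes the beta 2 chain, found in the basement membranes of the kidney glomerulus and the neuromuscular junction and in LM-521. It stood at 98.7 and 136 CPM in 3D FNHCS, at 154 and 315 CPM under 2D FNHCS, and at 286 and 432 CPM under 2D FBS. Both lines kept the same order of conditions as for Lamb3, and SN3595 was the higher line in each, so that the flat groups overlapped. From 117 ± 26.2 CPM in 3D FNHCS, Lamb2 rose to 359 ± 103 CPM in 2D FBS (log2 fold change 1.62 ± 0.41, adjusted p = 0.0225, edgeR). Dropping either 3D library ended the call (adjusted p = 0.12 without SN3593 and adjusted p = 0.0633 without SN3595), as did dropping 2D FBS of SN3595 (adjusted p = 0.108). In 2D FNHCS, at 235 ± 114 CPM, Lamb2 was not called against 3D FNHCS (1.0 ± 0.40, adjusted p = 0.13), but a fit that blocked on line called it (0.93, adjusted p = 0.0249), as did the fit that left out 2D FNHCS of SN3593 (adjusted p = 0.0483).

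Lamb1 encodes the beta 1 chain, which most tissues use. Its levels were 41.7 and 38.9 CPM in 3D FNHCS, 29.9 and 24.2 CPM under 2D FNHCS, and 94.2 and 22.6 CPM under 2D FBS. The 2D FBS library of SN3593 held the highest value of the 6 and that of SN3595 the lowest. No comparison passed the edgeR test, with a log2 fold change of -0.58 ± 0.59 in 2D FNHCS against 3D FNHCS (adjusted p = 0.517), 1.11 ± 0.59 in 2D FBS against 2D FNHCS (adjusted p = 0.265) and 0.53 ± 0.59 in 2D FBS against 3D FNHCS (adjusted p = 0.506). The direction against 3D FNHCS rested on 1 library. Without the 2D FBS library of SN3593 the log2 fold change was -0.84 (adjusted p = 0.0605), and without that of SN3595 it was 1.22 (adjusted p = 0.0211). Against 2D FNHCS the same omissions gave -0.26 (adjusted p = 0.553) and 1.81 (adjusted p = 0.0328).

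The same 2D FBS library of SN3593 also had the highest summed smooth muscle and fibroblast marker RNA, through a few members of each list. The 7 smooth muscle and pericyte markers summed to 8.85 to 14.4 CPM in the 4 FNHCS libraries, and to 1881 and 361 CPM in 2D FBS. Acta2 (29159 and 5416 counts), Cnn1 (32503 and 7835) and Myh11 (3662 and 912) gave most of that sum. Notch3, on the same list, went the other way, at 9.50 ± 0.645, 6.4 ± 0.149 and 2.48 ± 1.53 CPM over the 3 conditions. Of the 5 tested members, edgeR found 3 up (Acta2, Cnn1 and Myh11) and 1 down (Notch3) between 3D FNHCS and 2D FBS. The group means of Des and Cspg4 were at most 0.146 CPM. The 13 fibroblast markers summed to 108 and 134 CPM in 3D FNHCS, 680 and 460 CPM under 2D FNHCS, and 3211 and 1430 CPM under 2D FBS. Nearly all of the 2D FBS sum was Fn1 (3209 and 1428 CPM), while the defining fibroblast genes Col1a1 (5 to 24 counts) and Dcn (2 to 15 counts) stayed near 0 in every library. Cthrc1, also on this list, went down over the 3 conditions, at 19.7 ± 10.0, 6.57 ± 0.67 and 0.932 ± 0.221 CPM. The part of these markers in the Lamb1 values was not tested. The 11 endothelial markers summed to 119 to 674 CPM, nearly all of it Esam (522 ± 174, 164 ± 75.6 and 316 ± 49.8 CPM in the 3 conditions) with Egfl7 (27.5 ± 0.872, 6.50 ± 1.66 and 0.784 ± 0.07 CPM), both called lower in 2D FNHCS against 3D FNHCS, while Cldn5 was at 0 counts and Cdh5 at 0 to 3 in every library. The 8 leukocyte markers summed to 4.13 to 21.1 CPM, and the 10 basal and airway markers to 276 to 888 CPM. Most of the basal and airway sum was Tubb4b (345 ± 87.7, 361 ± 134 and 735 ± 103 CPM in the 3 conditions). Krt17 reached 35.8 ± 40.7 CPM and Krt5 0.223 ± 0.279 CPM, both in 2D FBS. Other members of this list went down from 3D FNHCS to 2D FBS. Among them were Muc5b (8.44 ± 6.52 to 0.052 ± 0.033 CPM) and Muc5ac (0.769 ± 0.436 to 0.067 ± 0.013 CPM). Between these groups edgeR found 2 of the 8 tested members up (Tubb4b and Krt14) and 2 down (Muc5b and Muc5ac). Of the 7 mesothelial markers, 6 were in the table and summed to 485 to 5204 CPM, highest in 2D FBS, with Wt1 at 0 to 7 counts. All 3 that were tested, Krt19 (479 ± 8.32 to 3146 ± 120 CPM), Msln (8.53 ± 5.18 to 1347 ± 1125 CPM) and Upk1b, were called higher in 2D FBS than in 3D FNHCS.

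Lamc1 encodes the gamma 1 chain, the gamma chain of most laminins. It stood at 73.1 and 80.1 CPM in 3D FNHCS, at 94.0 and 165 CPM under 2D FNHCS, and at 106 and 114 CPM under 2D FBS. All 4 flat libraries exceeded the 3D libraries, and both 2D FBS values lay between those of 2D FNHCS. No comparison passed the edgeR test: the log2 fold change was 0.76 ± 0.28 in 2D FNHCS against 3D FNHCS (adjusted p = 0.108), -0.24 ± 0.28 in 2D FBS against 2D FNHCS (adjusted p = 0.592) and 0.52 ± 0.28 in 2D FBS against 3D FNHCS (adjusted p = 0.182). Without the 2D FNHCS library of SN3593 the first was called (1.11, adjusted p = 0.0273), and without that of SN3595 the second turned to 0.22 (adjusted p = 0.502).

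The comparison of 2D FNHCS with 3D FNHCS holds the medium constant. Geometry and the matrigel drops change together in it and cannot be told apart. None of the 6 tested chains was called by edgeR, and with line as a block it called 1 (Lamb2). DESeq2 called 2 (Lama3 and Lamb3), where it called 4210 of all genes, and limma-voom called the same 2. Over all genes edgeR called 18.4%, 8.63% higher and 9.77% lower, and 29% with the block. The values of all 6 chains did not overlap between these groups, higher in 2D FNHCS for Lama3, Lamb2, Lamb3 and Lamc1 and lower for Lama5 and Lamb1, against 63.8% of all genes without overlap. The median log2 fold change was 0.88 over the 6 chains and 0.03 over all genes.

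The comparison of 2D FBS with 2D FNHCS changes the medium on flat culture. None of the 6 chains was called, none had an unadjusted p below 0.05, and neither DESeq2, limma-voom nor the fit with line as a block called any. Over all genes 10.6% were called, 5.85% higher and 4.77% lower, and 18.7% with the block. Only Lama5 and Lamb3 did not overlap between these groups, against 59.8% of all genes. Lama3 moved by -0.36 on the log2 scale in SN3593 and by 0.70 in SN3595 (0.32 ± 0.65 in the fit, adjusted p = 0.767), and without the 2D FBS library of SN3595 its log2 fold change was -0.53 (adjusted p = 0.707). Lamb2 moved by 0.90 and 0.46, and Lamb3 by 0.30 and 0.84. Lamb1 was called here without 2D FBS of SN3595, as given above.

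In 2D FBS against 3D FNHCS, 5 of the 6 chains did not overlap, against 75% of all genes, and Lamb1 did. With line as a block the same 3 chains were called and 49.3% of all genes. The 3 comparisons share libraries, so their values are given side by side and not as separate evidence.

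**Figure D2:**
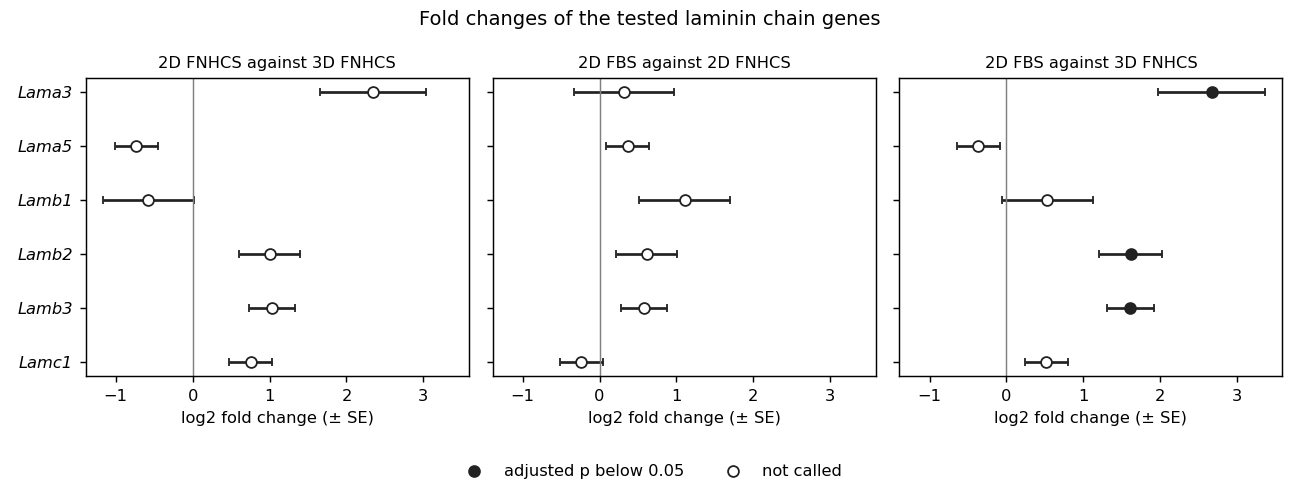
Log2 fold change with its standard error for the 6 tested laminin chain genes in the 3 comparisons, from edgeR over all 6 libraries. Filled points have an adjusted p below 0.05: none in 2D FNHCS against 3D FNHCS or in 2D FBS against 2D FNHCS, and Lama3, Lamb2 and Lamb3 in 2D FBS against 3D FNHCS.

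Both lines were compared with condition in the fit. None of the 6 chains was called by edgeR or by limma-voom, and DESeq2 called 1, where it called 748 of all genes. That chain was Lamb2, which was higher in SN3595 in all 3 conditions (log2 difference 0.70 ± 0.16, adjusted p = 0.168 in edgeR and 0.0129 in DESeq2). Lamb1 was lower in SN3595 in all 3 conditions (-0.81 ± 0.41, adjusted p = 0.348), most in 2D FBS. Lama3 differed by 0.05 ± 0.63, with SN3595 lower in 3D FNHCS and higher in both flat conditions. Lama5 (0.32 ± 0.19), Lamb3 (-0.15 ± 0.25) and Lamc1 (0.35 ± 0.18) were not called either. The background was 1 gene of 14416, or 0.00694% called and 0.00694% higher, with 0% lower. Whether a line responds differently to a condition could not be tested, since each line has 1 library per condition.

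The lines shared the direction from 3D FNHCS to 2D FNHCS for all 6 chains but not its size. The log2 difference of Lama3 was 1.52 in SN3593 and 3.68 in SN3595, that of Lamb2 0.64 and 1.22, that of Lamb3 0.83 and 1.31, and that of Lamc1 0.36 and 1.04, while that of Lama5 was -1.10 and -0.47 and that of Lamb1 -0.48 and -0.68. From 3D FNHCS to 2D FBS the differences were 1.16 and 4.37 for Lama3, 1.54 and 1.67 for Lamb2, 1.13 and 2.14 for Lamb3, and 0.53 and 0.51 for Lamc1. These are differences of single libraries, with no test of their own. The AT1 marker sum was also higher in SN3595 than in SN3593 in 2D FNHCS.

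Levels of different chains can be set side by side only per length, so CPM were divided by the length in kilobases (kb) of the longest protein-coding transcript. On this scale Lamb3 was the most abundant of the 8 genes in every condition, at 110 ± 34.5 CPM per kb in 3D FNHCS, 226 ± 18.9 under 2D FNHCS and 338 ± 60.0 under 2D FBS. Lamb2 came next, at 20.8 ± 4.66, 41.7 ± 20.3 and 63.8 ± 18.4 CPM per kb. Lamc1 (10.1 ± 0.647, 17.0 ± 6.58 and 14.4 ± 0.807 CPM per kb), Lama5 (13.3 ± 1.19, 8.04 ± 3.12 and 10.4 ± 0.0994) and Lamb1 (6.97 ± 0.344, 4.68 ± 0.698 and 10.1 ± 8.75) formed a middle group. Lama3 was the lowest of the 6 tested chains in 3D FNHCS (1.33 ± 1.05 CPM per kb) and stood at 6.74 ± 1.14 in 2D FNHCS, within the spread of Lama5, and at 8.43 ± 5.4 in 2D FBS. The shorter Lama3 transcript gave 2.52 ± 1.99, 12.8 ± 2.16 and 16.02 ± 10.3 CPM per kb, above the mean of Lama5 in both flat groups. On coding length alone Lamc1 came to 15.9, 26.9 and 22.8 CPM per kb, so that it stood above Lama5 in 3D FNHCS as well.

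Among the alpha chains, the share of the summed CPM per kb held by Lama5 was 85.7% and 95.9% in 3D FNHCS, 48.7% and 57.4% under 2D FNHCS, and 69.0% and 45.6% under 2D FBS. Lama3 held 14.2% and 3.97%, 49.5% and 42.2%, and 30.5% and 54.2%. The alpha sum itself was 14.6 and 14.8 CPM per kb in 3D FNHCS, 12.0 and 17.9 under 2D FNHCS, and 15.1 and 22.6 under 2D FBS. The alpha sum in 3D FNHCS lay within the range of 2D FNHCS, whereas the shares did not overlap. With Lama3 on its shorter transcript the sums were 16.45 and 15.3, 17.3 and 24.7, and 19.3 and 33.6 CPM per kb, so that both 3D libraries fell below every flat library. The ratio of Lama3 to Lama5 per length was 0.165 and 0.0414 in 3D FNHCS, 1.02 and 0.736 under 2D FNHCS, and 0.442 and 1.19 under 2D FBS, with no overlap between 3D and flat libraries. The shorter Lama3 transcript, at 5.55 kb against 10.6 kb, gave 0.314 and 0.0786 in 3D FNHCS, 1.93 and 1.40 under 2D FNHCS, and 0.84 and 2.26 under 2D FBS.

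Among the beta chains, Lamb3 held 73.6% to 88.1% of the summed CPM per kb in every library, while the sum was 160 and 117 CPM per kb in 3D FNHCS, 272 and 273 under 2D FNHCS, and 362 and 461 under 2D FBS. Lamb2 held 10.0% to 20.7%, higher in SN3595 than in SN3593 in each condition, and Lamb1 0.848% to 5.76%. The ratio of Lamb2 to Lamb1 per length was 2.43 and 3.59 in 3D FNHCS, 5.28 and 13.4 under 2D FNHCS, and 3.12 and 19.7 under 2D FBS. The smallest exact permutation p that 2 libraries against 2 allow is 0.333, so no test was made of these ratios.

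**Figure D3:**
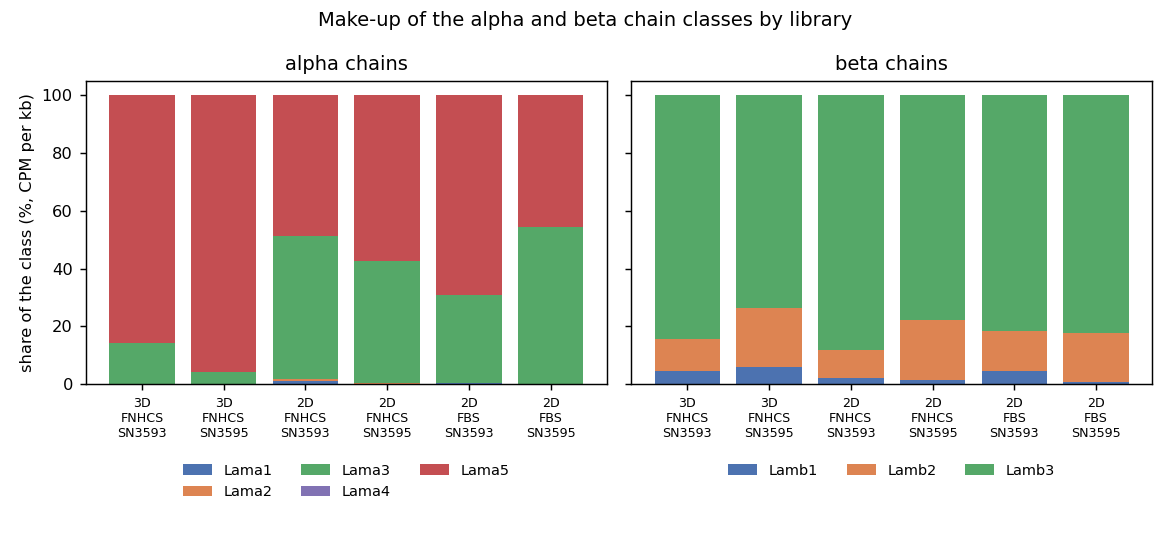
Share of each gene in the summed level (CPM per kb) of the alpha and beta chain genes, as stacked bars, 1 bar per library. The Lama3 share of the alpha class is 14.2% and 3.97% in 3D FNHCS and between 30.5% and 54.2% in the flat libraries and Lamb3 holds at least 73.6% of the beta class throughout.

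A trimer needs all of its chains, so the lowest of the 3 gives a ceiling on the RNA side, with protein, assembly and export not measured. Trimers share chains such as Lamc1, so each ceiling holds for a trimer taken alone and the ceilings do not add up. For LM-321, with the alpha 3, beta 2 and gamma 1 chains, Lama3 was the lowest chain in every library, at 2.07 and 0.586 CPM per kb in 3D FNHCS, 5.94 and 7.55 under 2D FNHCS, and 4.61 and 12.3 under 2D FBS. Its mean was 1.33 ± 1.05, 6.74 ± 1.14 and 8.43 ± 5.4 CPM per kb in that order, with no overlap between 3D and flat libraries. The shorter Lama3 transcript gave means of 2.52, 12.8 and 11.9 CPM per kb, and Lamc1 was then the lowest chain in 2D FBS of SN3595. Lamb3 exceeded Lama3 per length by 28.2-fold to 147-fold, by 14.8-fold to 77.2-fold on the shorter transcript, and by 37.1-fold to 193-fold on coding length. LM-311 was limited by Lamb1 in 3 of the 4 flat libraries, at 4.68 ± 0.698 CPM per kb in 2D FNHCS and 4.26 ± 0.499 in 2D FBS.

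LM-521, a trimer of mature epithelial membranes, was at 10.0 ± 0.644 CPM per kb in 3D FNHCS, limited by Lamc1, and at 8.04 ± 3.12 in 2D FNHCS and 10.4 ± 0.099 in 2D FBS, limited by Lama5. On this length the 3D values overlapped those of each flat group. The flat groups did not overlap each other, at 5.84 and 10.25 CPM per kb in 2D FNHCS against 10.43 and 10.29 in 2D FBS. On coding length Lama5 was the limiting chain of LM-521 in 3D FNHCS too, and both 3D libraries (12.8 and 14.5 CPM per kb) stood above all flat libraries (5.96 to 10.7). LM-511 was at 6.97 ± 0.344, 4.68 ± 0.698 and 7.17 ± 4.61 CPM per kb, limited by Lamb1 in 5 of the 6 libraries and by Lama5 in 2D FBS of SN3593. In 3D FNHCS both alpha 5 trimers had a higher lowest chain than LM-321 in each library. LM-321 was above LM-521 in 2D FNHCS of SN3593 (5.94 against 5.84 CPM per kb) and in 2D FBS of SN3595 (12.3 against 10.3). On the shorter Lama3 transcript it was above LM-521 in 3 of the 4 flat libraries, all but 2D FBS of SN3593 (8.76 against 10.4). LM-111 and LM-121, which need Lama1, were at 0 in 3D FNHCS and at 0.0695 ± 0.0669 CPM per kb in 2D FNHCS. LM-411 and LM-421, which need Lama4, were at or under 0.0171 CPM per kb in every library.

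**Figure D4:**
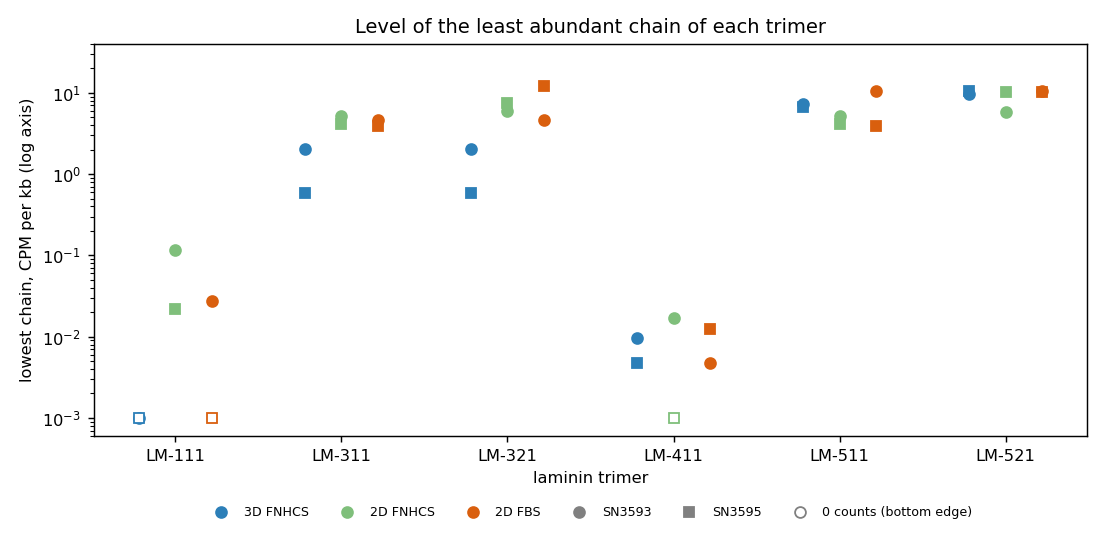
Level of the least abundant chain (CPM per kb, log axis) of 6 laminin trimers, 1 point per library, with colour for the condition, shape for the cell line and open symbols for 0 counts. LM-321 lies at 2.07 and 0.586 in 3D FNHCS and at 4.61 to 12.3 in the flat libraries, while LM-521 lies between 5.84 and 10.5 in all 6.

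Genes whose pattern over the 6 libraries was most like that of a chain were ranked by the root-mean-square difference of log2 CPM after each gene's mean was subtracted, over 8347 genes whose mean reached 10 CPM. The nearest to Lamb3 were Cdyl (0.099), Tspan5 (0.111) and Dusp8 (0.153), and to Lamb2 Btaf1 (0.076), AU040320 (0.09) and Ssh1 (0.11). For Lama3 they were farther off, with Ttc7b (0.407), Sphk1 (0.473) and Pkhd1 (0.478), as they were for Lamb1, with Kctd17 (0.271), Stim1 (0.297) and Mfsd7b (0.299). Lama5 lay nearest to Lrrk2 (0.066), Ikbke (0.083) and Dgkd (0.095), and Lamc1 to Rnpepl1 (0.078), Pvrl2 (0.092) and Jmjd4 (0.097). Between the chains themselves the smallest differences were 0.482 for Lamb2 and Lamb3 and 0.5 for Lamb2 and Lamc1, and Lama3 and Lamb3 differed by 0.803. With 6 libraries that share lines and conditions, these values are a description.

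In 2D FBS against 2D FNHCS, 6 of 15 laminin receptor genes rose, none fell and 9 were not called, where 10.6% of all genes were called, with a list median log2 fold change of 1.18 against -0.06 over all genes. The syndecan gene Sdc2 rose by 2.27 ± 0.18 (adjusted p = 0.00613, edgeR), Itga1, for the integrin alpha 1 chain, by 5.80 ± 0.75 (adjusted p = 0.0128), Itga6, for the alpha 6 integrin chain that binds LM-511, by 1.32 ± 0.22 (adjusted p = 0.0223), and the tetraspanin gene Cd151 by 1.25 ± 0.21 (adjusted p = 0.0232). Itga1 stood at 16.8 and 23.3 CPM in 3D FNHCS, 1.79 and 0.939 CPM under 2D FNHCS, and 119 and 32.6 CPM under 2D FBS. In 2D FNHCS against 3D FNHCS, 1 receptor gene rose and 3 fell, a share near the 18.4% called over all genes: Itgb1, for the integrin beta 1 chain, rose by 0.95 ± 0.22 (adjusted p = 0.0332), Itga7 fell by 6.48 ± 0.80 (adjusted p = 0.00784), Itga1 fell by 3.88 ± 0.70 (adjusted p = 0.0174), and Rpsa, a ribosomal protein gene with many near-identical copies whose count is uncertain, fell by 2.03 ± 0.33 (adjusted p = 0.0142). In 2D FBS against 3D FNHCS, 9 rose and 4 fell, where 40.5% of all genes were called, among the former Sdc2 by 2.58 ± 0.18 (adjusted p = 0.000787) and Itgb1 by 2.13 ± 0.23 (adjusted p = 0.00169). The 4 that fell were Itga7 (log2 fold change -4.02 ± 0.69), Rpsa (-2.86 ± 0.34), Itga2 (-1.67 ± 0.47) and Sdc4 (-0.995 ± 0.213). Itga3, for the main epithelial partner of LM-511, went from 134.5 ± 3.37 to 678 ± 140 CPM (2.33 ± 0.50, adjusted p = 0.0134).

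Itgb4, for the integrin beta 4 chain that joins alpha 6 at hemidesmosomes, rose from 2.72 ± 1.12 CPM in 3D FNHCS and 5.38 ± 0.391 CPM in 2D FNHCS to 21.2 ± 9.46 CPM in 2D FBS (log2 fold change against 3D FNHCS 2.96 ± 0.45, adjusted p = 0.00426, edgeR). Of the 6 hemidesmosome genes, 5 were tested, and 3 of these (Itga6, Itgb4 and Cd151) are also among the receptors above. In 2D FNHCS against 3D FNHCS 2 rose, Plec by 1.09 ± 0.27 (adjusted p = 0.042) and Dst by 1.66 ± 0.44 (adjusted p = 0.0494, and adjusted p = 0.05005 with line as a block, which ends the call), and all 5 rose in both comparisons with 2D FBS. Over all genes 18.4% were called in 2D FNHCS against 3D FNHCS, 10.6% in 2D FBS against 2D FNHCS and 40.5% in 2D FBS against 3D FNHCS. The sixth, Col17a1, had a summed count of 1 to 2.33 per condition and was not tested. Of 8 tested genes that glycosylate dystroglycan for laminin binding, 2 rose in 2D FNHCS against 3D FNHCS, 0 in 2D FBS against 2D FNHCS and 4 across both steps, and none fell. The counts of these glycosylation genes are near the shares over all genes (18.4%, 10.6% and 40.5% called). With line as a block they were 4, 1 and 5, where 29%, 18.7% and 49.3% of all genes were called. Dag1 itself, the dystroglycan gene, stood at 254 and 272 CPM in 3D FNHCS, at 356 and 1923 CPM under 2D FNHCS, and at 1693 and 2901 CPM under 2D FBS (3.13 ± 0.78 in 2D FBS against 3D FNHCS, adjusted p = 0.0222).

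**Figure D5:**
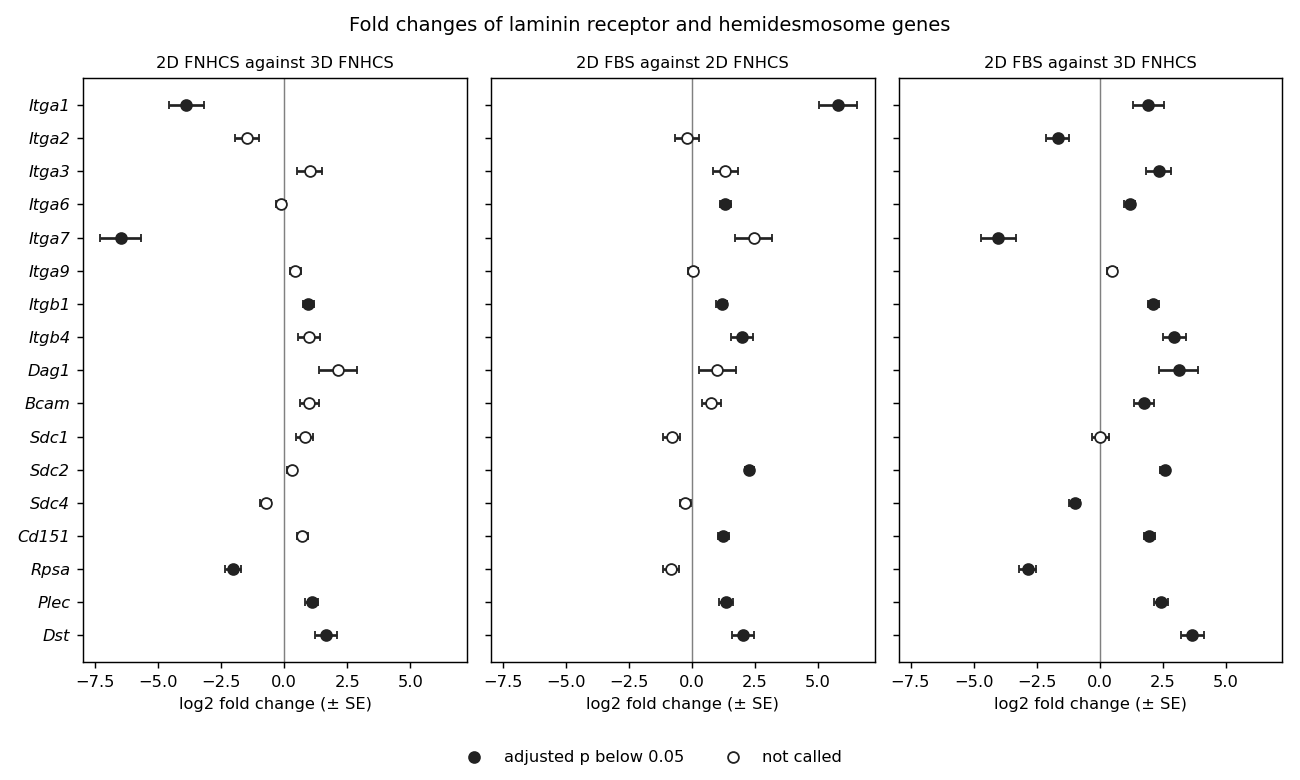
Log2 fold change with its standard error for 15 laminin receptor genes and the hemidesmosome genes Plec and Dst in the 3 comparisons, from edgeR, with filled points for an adjusted p below 0.05. Of the receptors, 1 rose and 3 fell in 2D FNHCS against 3D FNHCS, 6 rose in 2D FBS against 2D FNHCS, and 9 rose and 4 fell in 2D FBS against 3D FNHCS.

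Among 17 tested basement membrane partners of laminin, 9 rose and 1 fell in 2D FNHCS against 3D FNHCS, 1 rose in 2D FBS against 2D FNHCS, and 12 rose and 2 fell in 2D FBS against 3D FNHCS, where 18.4%, 10.6% and 40.5% of all genes were called. Ntn4, for a netrin that binds laminin gamma chains, rose by 5.26 ± 0.38 in the first comparison (adjusted p = 0.00293, edgeR) and by 1.79 ± 0.32 in the second (adjusted p = 0.0248). In the first, Smoc2, for a matrix protein of basement membranes, rose by 5.53 ± 0.66 (adjusted p = 0.00725), and the type IV collagen genes Col4a3, also on the AT1 marker list, and Col4a1 rose by 4.46 ± 0.56 (adjusted p = 0.00811) and 2.54 ± 0.34 (adjusted p = 0.00936). Nid1, for nidogen, which links laminin to type IV collagen, had 46, 82 and 330 summed counts in the 3 conditions and was not called in any (adjusted p = 0.0588 in 2D FBS against 3D FNHCS, though the block on line brought a call there at adjusted p = 0.0416), and Nid2 had 2 to 5 summed counts. Of 7 tested proteases that cleave laminin chains, 2 rose and 1 fell, none rose and 1 fell, and 3 rose and 1 fell in the same order, beside the same shares over all genes. Hpn, for the membrane serine protease hepsin, fell by 1.28 ± 0.17 in 2D FNHCS against 3D FNHCS (adjusted p = 0.00882). Bmp1, a protease that trims laminin and procollagen chains, rose by 1.58 ± 0.31 in 2D FNHCS against 3D FNHCS (adjusted p = 0.0219) and fell by 2.01 ± 0.32 in 2D FBS against 2D FNHCS (adjusted p = 0.0193).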

How the data were processed

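RNA was measured in 6 polyA libraries, made with RNeasy columns and NEB Ultra II, per the labels' protocols. The deposited values are expected counts, in which reads are shared among genes by a model and values can be fractional. Per the submitters' processing notes, RSEM 1.3.1, Bowtie 1.2.3 and the build mm9 were used. Not given in the sources used here are the annotation, the options and the use of strand, so reads of overlapping or antisense genes cannot be separated. Every per-sample column was used. Groups came from the treatment labels and lines from the cell line labels.

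Counts were rounded to whole numbers and tested in R 4.3.3 with edgeR 4.0.16 (TMM, its default filter on low counts, quasi-likelihood test, Benjamini-Hochberg adjustment over 14416 genes, called below 0.05). All 6 libraries entered 1 fit with a term per group, leaving 3 residual degrees of freedom, and a fit with terms for group and line, leaving 2, compared the lines. The standard error (SE) was obtained from the size of the log2 fold change and the F statistic, as their ratio after a square root of F. Alternatives used limma 3.58.1 (voom), DESeq2 1.42.0, other scalings, no filter, line as a block, and fits without each library. The test was checked on simulated data.

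The same line in each condition pairs the libraries. Deviations of same-line libraries from their group means correlated at 0.422, 0.245 and 0.379 across genes for the 3 pairs of conditions. Floors of 3 counts cover counting error only.

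Transcript lengths came from the GENCODE annotation of build GRCm38 and promoter sequences from RefSeq on GRCm38.p6. These builds differ from that of the counts, so they served for lengths and promoter letters alone. The level of a trimer is that of its lowest chain per length.

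Every laminin chain chosen is named in every comparison. Of other lists, at most 4 called members with the lowest adjusted p per comparison are named, with members needed to describe a receptor or partner that was not called, and for likeness the 3 nearest genes. Itga3, Itgb4 and Dag1 in 2D FBS against 3D FNHCS were chosen outside that rule after their values were seen. Itga7, Itga2 and Sdc4 were also named there outside the rule, to show both directions. So were cell type markers that make up a list's sum or go against it. The members and gene lists were chosen with earlier results of these data known. All 8 laminin symbols matched the table, and the lists matched by symbol with older forms allowed.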

Additional observations from a re-analysis of the deposited data

Results flagged for a closer look

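The lines moved in opposite directions in 4 cases, which rest on 1 library per line and condition and were not tested. In 2D FBS against 2D FNHCS, the log2 difference of Lamb1 was 1.65 in SN3593 against -0.10 in SN3595. In 2D FBS against 3D FNHCS it was 1.17 against -0.78 in the same lines. That of Lama3 was -0.36 in SN3593 against 0.70 in SN3595 in the step from 2D FNHCS to 2D FBS. For Lamc1 in that step, SN3593 gave 0.17 and SN3595 gave -0.53. The smooth muscle marker sum in 2D FBS was 1881 CPM in SN3593 and 361 CPM in SN3595, and its part in these differences was not tested.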

How the results depend on the processing

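Of 324 recomputed fold changes of the 6 chains, 306 kept their side of the threshold, 13 moved past it and 5 fell back, with no called value changing sign. The number of chains called in 2D FNHCS against 3D FNHCS, 0 in the report, was 1 without a filter (Lama3, adjusted p = 0.0479), 1 with library size alone (Lamb3, adjusted p = 0.0429), 1 with line as a replicate block (Lamb2), 2 with DESeq2, 2 with limma-voom, and 0 to 2 without each library. In 2D FBS against 2D FNHCS it was 0 to 1 without each library, and in 2D FBS against 3D FNHCS, 3 in the report, 1 to 3. In the comparison of lines DESeq2 called 1 chain. With line as a replicate block 4181 genes were called in 2D FNHCS against 3D FNHCS and 2700 in 2D FBS against 2D FNHCS (2652 and 1531 without it), and the block changed the call of no other chain. DESeq2 called 4210 and 3147 genes, and the 2 groups alone gave 828 in the second comparison. Without each library, 565 to 1869 genes were called in 2D FNHCS against 3D FNHCS, 62 to 1292 in 2D FBS against 2D FNHCS, 3281 to 6000 in 2D FBS against 3D FNHCS, and 0 to 0 between lines, where the count was 73 without a filter, 748 with DESeq2, and 0 with library size alone or upper-quartile factors. A lone library left in a group is assumed to vary like the others. Library size alone turned the split of higher and lower calls from 1244 and 1408 to 1885 and 1137 in 2D FNHCS against 3D FNHCS, and from 843 and 688 to 625 and 1474 in 2D FBS against 2D FNHCS, where upper-quartile factors gave 43.4% higher against 55.1%. The causes were not tested. The mean ratio of Lama3 to Lama5 per length, 0.103, 0.877 and 0.816 in 3D FNHCS, 2D FNHCS and 2D FBS, was 0.196, 1.67 and 1.55 on the shorter Lama3 transcript, an alternative chosen after seeing the data, as was coding length from the annotation. Coding length from a protein table was not run. With 2 libraries per group the spread is poorly known, and Lama1 and Lama4 had too few counts to test. Calls of receptor, partner and marker genes were not recomputed without each library.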
